A study of Homo sapiens with 12 samples.

Results

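The transcription factor NRF2 and 8 genes that it is known to switch on were followed in spheroids of the prostate cancer cell line DU145 that differ in α2 integrin. The 9 genes were picked by symbol: NFE2L2, which encodes NRF2, and NQO1, HMOX1, GCLC, GCLM, TXNRD1, SRXN1, AKR1C1 and AKR1B10. All 9 were among the 26485 genes of the count table and among the 14732 that passed the filter on low counts. RNA sequencing had been done on 12 samples, 4 from each of 3 lines. All lines carry a CRISPR-Cas9 knockout of ITGA2, the gene of the α2 subunit of the collagen receptor α2β1, and DU145KO is that knockout with nothing further transfected. DU145KO+α2 is DU145KO stably transfected with α2 cDNA in the pAWneo2 vector, and DU145KO+vector is DU145KO stably transfected with the empty vector. Both transfected lines were kept in geneticin and DU145KO was not described as kept in it, so geneticin and transfection cannot be told apart when either is compared with DU145KO. DU145KO had been obtained by choosing GFP-positive cells after editing and checking them for loss of surface α2, and each transfection is represented by 1 stable line, whether clone or pool is not stated. The spheroids, of 8000 cells each, had grown for 72 hours in serum-free medium.

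NRF2 is held in the cytoplasm by KEAP1, which hands it to a CUL3 ubiquitin ligase for destruction. Electrophiles and oxidants modify KEAP1, and the NRF2 that is then spared pairs with a small MAF protein and binds antioxidant response elements near genes for glutathione synthesis, thioredoxin reduction, quinone reduction, heme breakdown and carbonyl reduction. In prostate cancer, DU145 is known as a line with weak KEAP1 function and high expression of such genes. NRF2 is controlled largely at the level of its protein, which RNA sequencing does not measure.

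The antioxidant response element is shown first because it is the sequence that NRF2 is known to bind. Its core, TGACNNNGC, was searched on both strands in windows from 1000 bases before to 50 bases after each RefSeq gene start (GRCh38.p14, hg38). Of the 9 genes, 7 had such a window, and those of NQO1, GCLC, GCLM and TXNRD1 held the core. Among all 35116 promoters of this length, 33.7% held it. Within 250 bases before to 50 bases after the start, GCLM and TXNRD1 held it, against 13.3% of all promoters. The windows of SRXN1, AKR1C1 and NFE2L2 did not contain these letters, and no window was read for HMOX1 and AKR1B10. The matches lie in NQO1 at chr16:69726992-69727030, in GCLC at chr6:53545948-53545986, in GCLM at chr1:93909441-93909479 and in TXNRD1 at chr12:104215665-104215703, chr12:104215756-104215794 and, at a second gene start, chr12:104286915-104286953. Each is printed 5′ to 3′ on the strand of its gene, with the core or its reverse complement in capitals and 15 bases on either side. The core began 455 bases before the start of NQO1, 870 before that of GCLC, 34 before that of GCLM, 99 and 8 before the first start of TXNRD1 and 102 before its second.
NQO1: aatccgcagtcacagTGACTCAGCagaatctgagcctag
GCLC: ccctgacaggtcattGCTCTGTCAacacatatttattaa
GCLM: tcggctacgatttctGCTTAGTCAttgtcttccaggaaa
TXNRD1, first start: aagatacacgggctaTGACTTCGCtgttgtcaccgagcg
TXNRD1, first start: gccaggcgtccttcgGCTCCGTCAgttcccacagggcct
TXNRD1, second start: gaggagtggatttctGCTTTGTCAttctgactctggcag
These are matches of letters, and no binding of NRF2 was measured.

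The samples held 13948734 to 19988111 counts. Levels are given as CPM, counts scaled to a common library size after TMM normalization, edgeR's correction for library composition, and per length as RPKM. ITGA2 averaged 20.7 ± 4.15 CPM in DU145KO, 17.6 ± 3.15 in DU145KO+vector and 305 ± 33.5 in DU145KO+α2 (SD, n = 4 each), in the order that the labels give. Its log2 fold change of -0.23 in DU145KO+vector against DU145KO had an adjusted p of 0.534, and 0.0402 in a fit with the replicate number as a block. The epithelial markers KRT8, KRT18, EPCAM and CDH1 were present in every sample. The 4 epithelial markers summed to 1025 to 1372 CPM in DU145KO, 923 to 1175 in DU145KO+vector and 686 to 963 in DU145KO+α2, and the part of this difference in the results was not tested. Of the markers of other cells, KRT5, KRT14, TP63, PTPRC, CD3E, COL1A2, DCN and LUM had at most 2 counts in any sample, while CD14 had 21 to 43 counts, or 1.27 to 2.63 CPM. The fibroblast list summed to 8.47 to 12.7 CPM, most of it COL1A1, and the endothelial list to 1.09 to 3.79. Fewer cells with a transcript and less of it per cell cannot be told apart in these bulk samples.

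NQO1 and TXNRD1 were among the most abundant transcripts of the spheroids. By mean RPKM, NQO1 ranked 22 of 26485 genes in DU145KO, 30 in DU145KO+vector and 41 in DU145KO+α2, and TXNRD1 ranked 64, 63 and 75. GCLC and SRXN1 followed at ranks between 191 and 289. In DU145KO, mean RPKM ran from 1200 ± 62.1 for NQO1 and 631 ± 38.3 for TXNRD1 to 194 ± 22.9 for GCLC and 183 ± 27.3 for SRXN1, with the last pair within each other's spread. NFE2L2 stood at 43.6 ± 1.19 RPKM, AKR1C1 at 25.5 ± 7.90, HMOX1 at 23.9 ± 1.92, AKR1B10 at 16.7 ± 3.90 and GCLM at 12.4 ± 0.474 (SD, n = 4). Per length, the catalytic subunit gene GCLC was therefore far above the modifier subunit gene GCLM in the same samples, and NQO1 far above the gene of the factor that is known to drive it. NQO1 and AKR1B10 lay at the extremes of order in DU145KO+α2, where AKR1B10 had 4.14 ± 1.60 RPKM and a rank of 9515.

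The lines were compared by the quasi-likelihood test of edgeR, with p-values adjusted over all 14732 genes, and a gene was called at an adjusted p under 0.05. Samples with the same replicate number tended to deviate together across lines. The numbers were therefore taken to pair the samples, which rests on these data and not on the labels. Each test was repeated with the replicate number as a block, and that value is given where it changes the call of a named gene. DU145KO+α2 against DU145KO+vector asks about α2 with the vector shared, and DU145KO+α2 against DU145KO about α2 together with transfection. DU145KO+vector against DU145KO asks about transfection and geneticin without α2. No other line repeats either transfection, so the choice of line cannot be told apart from α2 or transfection in these comparisons. This limit holds for each gene and list that follows. The 3 comparisons share samples, so their values are not independent of each other.

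Without the block, GCLC was the 1 gene of the set called lower in DU145KO+α2 against both other lines, and AKR1B10 was called lower against DU145KO, where α2 and transfection cannot be told apart. In DU145KO+α2 against DU145KO+vector, none of the 9 genes rose and 1, GCLC, fell, where 5.96% of all tested genes were called higher and 5.95% lower. With the block, none rose and 4 fell, NQO1, GCLC, TXNRD1 and AKR1B10, where 12.9% of all genes were called higher and 13.7% lower. Without the block, none was called with a fold change above 2, against 2.21% of all genes, and 3 had groups that did not overlap, against 17.2%. At an unadjusted p under 0.05 none was higher and 4 were lower, and DESeq2 called 0 and 3 and voom with limma 0 and 1. In DU145KO+α2 against DU145KO, none rose and 2 fell, GCLC and AKR1B10, where 3.09% of all genes were called higher and 5.08% lower. AKR1B10 was the 1 gene also past a fold change of 2, against 2.1% of all genes. With the block, 1 rose (HMOX1) and 4 fell (NQO1, GCLC, TXNRD1 and AKR1B10), where 9.93% and 12.4% of all genes were called. In CPM, which takes no account of the block, 4 had groups that did not overlap, against 12.9% of all genes. These included NFE2L2, which was not called. At an unadjusted p under 0.05, 1 was higher and 3 were lower, and DESeq2 called 1 and 2 and voom 0 and 2. The median log2 fold change of the 9 genes was -0.21 in the first comparison and -0.18 in the second, beside -0.01 and -0.00 over all genes tested, and 8 of the 9 values were negative in each. In the second, 1 of the 8 was GCLM at -0.004, which turned positive in 17 of 30 alternatives. The share of negative values over all genes was not counted.

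Between the lines without α2, DU145KO+vector and DU145KO, edgeR called none of the 9 genes higher or lower, where 0.496% and 1.84% of all genes were, none was past a fold change of 2 with an adjusted p under 0.05, against 0.835%, and no groups failed to overlap, against 8.76%. With the block, GCLC was called higher and AKR1B10 lower, where 5.59% and 7.85% of all genes were called. At an unadjusted p under 0.05 none was higher and 1, AKR1B10, was lower, and DESeq2 and voom called 0. The median log2 fold change was -0.02, beside -0.00 over all genes.

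**Figure D1:**
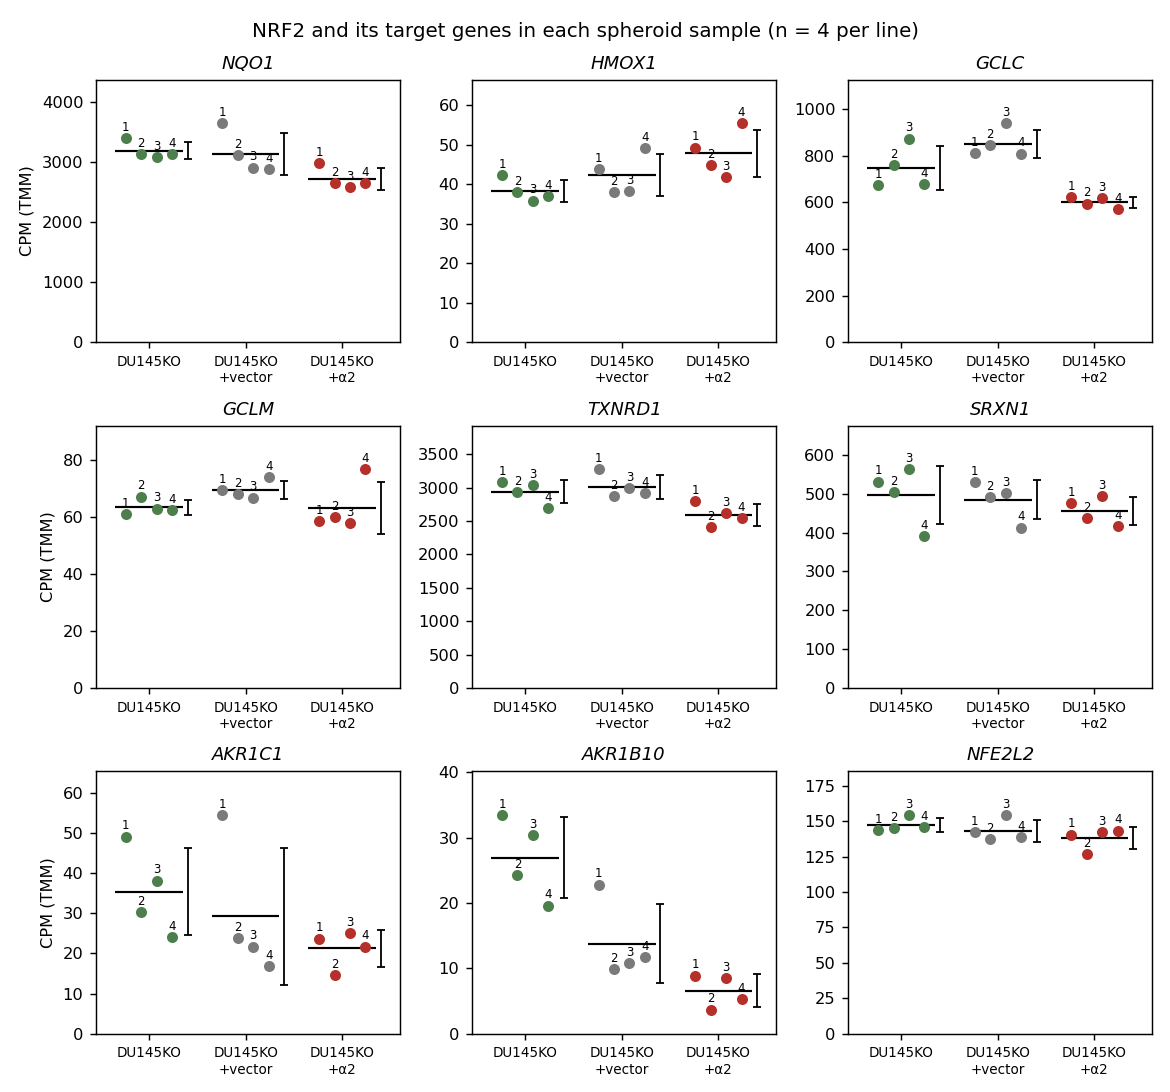
CPM (counts scaled to a common library size with TMM, linear axes from 0) of the 9 genes in each of the 12 samples, with one point per sample labelled by its replicate number, a horizontal bar for the mean of the line and a vertical bar for 1 SD on either side. GCLC in DU145KO+α2 (570 to 621 CPM) and AKR1B10 in DU145KO+α2 (3.70 to 8.87 CPM) lie below all samples of both other lines.

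**Figure D2:**
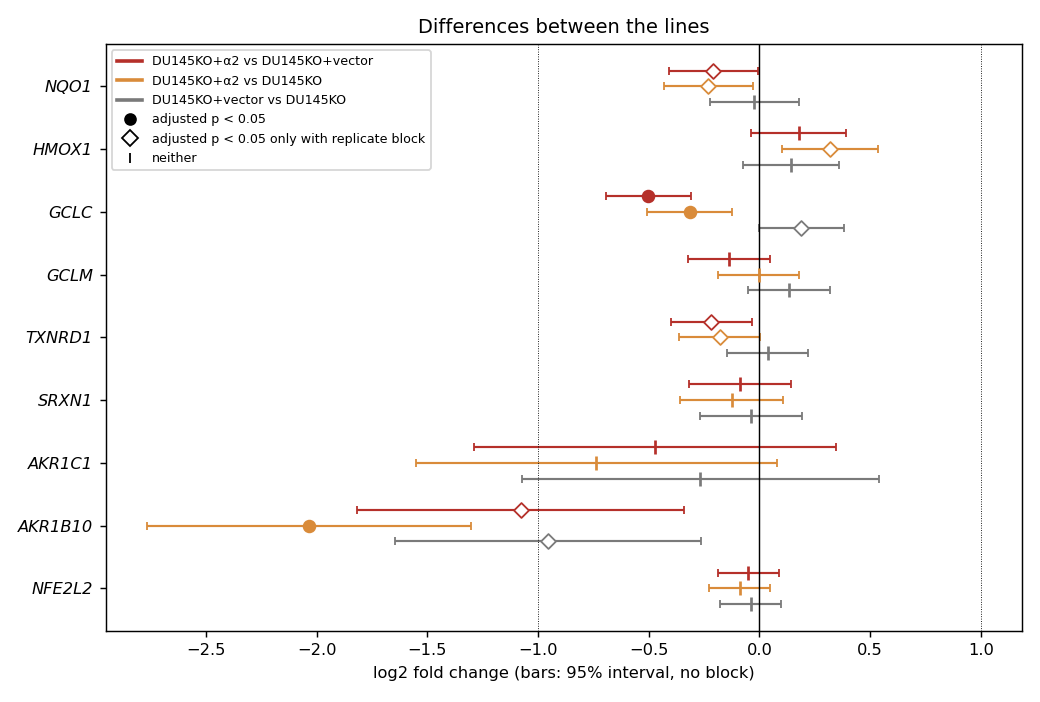
Log2 fold changes of the 9 genes in the 3 comparisons, with 95% intervals from the fit without the block and dotted lines at a 2-fold change. Filled circles had an adjusted p under 0.05 (GCLC in both comparisons with α2, and AKR1B10 against DU145KO), and open diamonds had it only in the fit with the replicate block.

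NFE2L2 (chr2:177230303-177264727, minus strand), the gene of NRF2 itself, varied little within lines, with a CV of 3.32% to 5.50%. It had 144, 145, 154 and 146 CPM in replicates 1 to 4 of DU145KO, 142, 137, 154 and 138 in DU145KO+vector, and 140, 127, 142 and 143 in DU145KO+α2. The DU145KO+vector samples overlapped both other lines, while the highest DU145KO+α2 sample lay just under the lowest DU145KO sample. The log2 fold change of DU145KO+α2 was -0.05 against DU145KO+vector (95% interval -0.19 to 0.09, adjusted p = 0.706) and -0.09 against DU145KO (95% interval -0.23 to 0.05, adjusted p = 0.485). In the annotation, 23.4% of the exonic bases of NFE2L2 overlap HNRNPA3 on the opposite strand, and the strand setting of the counting is not given in the sources used here. KEAP1, the NRF2 inhibitor, averaged 65.8 ± 8.10 CPM in DU145KO, 66.1 ± 7.43 in DU145KO+vector and 61.3 ± 4.66 in DU145KO+α2. None of its 3 comparisons passed, and the log2 fold change of DU145KO+α2 against DU145KO+vector was -0.11 (95% interval -0.32 to 0.10, adjusted p = 0.553).

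NQO1 (chr16:69709401-69726560, minus strand) encodes the reductase that takes quinones to hydroquinones and is the usual marker gene of NRF2 activity. It had 3394, 3132, 3080 and 3128 CPM in DU145KO, 3636, 3108, 2901 and 2883 in DU145KO+vector, and 2982, 2646, 2574 and 2646 in DU145KO+α2. Every DU145KO+α2 sample was under every DU145KO sample, but replicate 1 of DU145KO+α2 was above 2 samples of DU145KO+vector. The log2 fold change was -0.21 ± 0.09 (SE) against DU145KO+vector, with an adjusted p of 0.183, and 0.0131 with the block. It was -0.23 ± 0.09 against DU145KO, with an adjusted p of 0.163, and 0.00651 with the block. The blocked call against DU145KO+vector was lost when all samples of number 1 or of number 2 were left out (adjusted p up to 0.119), and that against DU145KO was kept without each of the 4 numbers. Without replicate 1 of DU145KO+vector, the log2 fold change against that line was -0.12. DU145KO+vector and DU145KO overlapped, with a log2 fold change of -0.02 (95% interval -0.22 to 0.18).

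HMOX1 (chr22:35381096-35394207, plus strand) encodes heme oxygenase 1, which opens the heme ring to biliverdin, iron and carbon monoxide. It was the 1 gene of the set with a positive log2 fold change in both comparisons with α2. It had 42.3, 38.1, 35.9 and 37.0 CPM in DU145KO, 43.9, 38.0, 38.2 and 49.1 in DU145KO+vector, and 49.3, 44.9, 41.8 and 55.4 in DU145KO+α2. In each replicate number DU145KO+α2 was the highest line, although the 3 groups overlapped. Against DU145KO the log2 fold change was 0.32 ± 0.10 (SE), with an adjusted p of 0.0679, and 0.00211 with the block, and the blocked call was kept without each of the 4 numbers. Without the block HMOX1 was called by edgeR when replicate 1 of DU145KO (adjusted p = 0.0462) or replicate 3 of DU145KO+α2 (0.0382) was left out. Against DU145KO+vector it was 0.18 ± 0.10, with an adjusted p of 0.306, and it did not pass with the block either (0.0602). Without replicate 4 of DU145KO+α2 the log2 fold change was 0.10, with an adjusted p of 0.628. HMOX1 is also known to be repressed by BACH1. The log2 fold change of BACH1 was -0.19 ± 0.07 against DU145KO+vector and -0.18 ± 0.07 against DU145KO, with adjusted p of 0.112 and 0.164, and 0.0133 and 0.0226 with the block. BACH1 was thus not called without the block, and BACH2, another repressor, rose by 0.85 ± 0.18 against DU145KO+vector. A link between BACH1 or BACH2 and HMOX1 in these lines was not tested.

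Glutathione synthesis begins with glutamate-cysteine ligase, whose catalytic subunit GCLC (chr6:53497341-53545101, minus strand) does the chemistry and whose modifier subunit GCLM raises its affinity for substrate. GCLC had 674, 760, 873 and 678 CPM in DU145KO, 812, 845, 938 and 808 in DU145KO+vector, and 621, 594, 617 and 570 in DU145KO+α2. The DU145KO+α2 samples were the lowest 4 of the 12, and they were also the closest together, with a CV of 3.94% against 12.5% in DU145KO and 7.10% in DU145KO+vector. GCLC fell by 0.50 ± 0.09 (SE) on the log2 scale against DU145KO+vector, with an adjusted p of 0.00175, and this was called in 30 of 30 alternatives that kept the call rule (adjusted p at most 0.0293). Against DU145KO it fell by 0.31 ± 0.09, with an adjusted p of 0.0422 near the threshold, and it was called in 12 of 30 alternatives. That call ended when 1 of 9 libraries was left out, replicate 2 or 3 of DU145KO, any of DU145KO+α2, or replicate 1, 2 or 4 of DU145KO+vector, with adjusted p up to 0.134. With the block the adjusted p was 0.000610, and the call was kept without each of the 4 numbers. Between DU145KO+vector and DU145KO the log2 fold change was 0.19 ± 0.09, with an adjusted p of 0.341, and 0.0326 with the block. That blocked call was lost without number 1, 2 or 4. The line with the vector thus had the highest mean of GCLC, 851 ± 60.4 CPM, then DU145KO with 746 ± 93.4, whose samples overlapped, then DU145KO+α2 with 600.4 ± 23.7.

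GCLM (chr1:93885199-93909430, minus strand) was not called in any of the 3 comparisons, with or without the block, when all 12 samples were used. It had 61.2, 67.2, 63.0 and 62.4 CPM in DU145KO, 69.5, 68.0, 66.9 and 74.1 in DU145KO+vector, and 58.6, 59.9, 57.8 and 76.8 in DU145KO+α2. Replicates 1 to 3 of DU145KO+α2 were under all other samples, while replicate 4 was the highest of the 12. The log2 fold change of DU145KO+α2 was -0.14 against DU145KO+vector (95% interval -0.32 to 0.05, adjusted p = 0.360) and -0.00 against DU145KO (95% interval -0.19 to 0.18, adjusted p = 0.989). Without replicate 4 of DU145KO+α2 alone, the log2 fold change against DU145KO+vector was -0.24 and passed (adjusted p = 0.0433). Without all samples of number 4 and with the block, GCLM also passed against DU145KO+vector (adjusted p = 0.0280).

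TXNRD1 and SRXN1 act in the thioredoxin arm. TXNRD1 (chr12:104215779-104350307, plus strand) encodes cytosolic thioredoxin reductase, which passes electrons from NADPH to thioredoxin. It had 3089, 2932, 3035 and 2696 CPM in DU145KO, 3276, 2877, 2997 and 2917 in DU145KO+vector, and 2797, 2411, 2625 and 2544 in DU145KO+α2. All DU145KO+α2 samples were under all DU145KO+vector samples, and replicate 1 of DU145KO+α2 was above replicate 4 of DU145KO. Against DU145KO+vector the log2 fold change was -0.22 ± 0.09 (SE), with an adjusted p of 0.122, and 0.00790 with the block, a call lost without number 1 (0.0613). Against DU145KO it was -0.18 ± 0.09, with an adjusted p of 0.243, and 0.0299 with the block, a call lost without number 1, 2 or 3 (up to 0.161). SRXN1 (chr20:646615-653200, minus strand) encodes sulfiredoxin, which repairs overoxidized peroxiredoxins. It had 532, 504, 563 and 391 CPM in DU145KO, 530, 492, 503 and 413 in DU145KO+vector, and 476, 438, 494 and 416 in DU145KO+α2. The 3 lines overlapped, and replicate 4 was the lowest sample in each. SRXN1 was not called in any comparison or alternative, with a log2 fold change of -0.09 against DU145KO+vector (95% interval -0.32 to 0.14) and -0.13 against DU145KO (95% interval -0.36 to 0.11).

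AKR1B10 and AKR1C1 are aldo-keto reductases, enzymes that use NADPH to reduce carbonyls, with retinals and lipid aldehydes among the substrates of AKR1B10 and steroids among those of AKR1C1. AKR1B10 (chr7:134527567-134541412, plus strand) had 33.5, 24.2, 30.4 and 19.6 CPM in DU145KO, 22.8, 9.83, 10.8 and 11.7 in DU145KO+vector, and 8.87, 3.70, 8.56 and 5.28 in DU145KO+α2. The order was the same in all 4 replicate numbers, with DU145KO highest and DU145KO+α2 lowest. DU145KO+α2 did not overlap either line, and the highest DU145KO+vector sample was above the lowest DU145KO sample. AKR1B10 fell by 2.03 ± 0.33 (SE) on the log2 scale against DU145KO, 4.10-fold, with an adjusted p of 0.00310, and this was called in 30 of 30 alternatives. The mean of DU145KO+α2, 6.60 ± 2.53 CPM, was also under that of DU145KO+vector, 13.8 ± 6.07, with a log2 fold change of -1.08 ± 0.34, an adjusted p of 0.0623, and 0.00390 with the block. Between DU145KO+vector and DU145KO it was -0.96 ± 0.31, with an adjusted p of 0.165, and 0.00592 with the block. Both blocked calls were kept without each of the 4 numbers. Leaving out replicate 1 of DU145KO+vector moved these values to -0.71 and -1.32, and the second was then called without the block (adjusted p = 0.0249). With all samples, the step from DU145KO to the vector line (-0.96) and the step from there to the α2 line (-1.08) were of similar size. Without replicate 1 of DU145KO+vector they were not. With all samples and no block, neither step was called. Transfection, geneticin and the choice of each line cannot be told apart in the first step, nor can α2 and the choice of each line in the second.

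AKR1C1 (chr10:4963415-4983283, plus strand) had a CV of 21.8% to 58.3% within lines. It had 49.1, 30.4, 38.1 and 24.0 CPM in DU145KO, 54.5, 23.9, 21.7 and 16.9 in DU145KO+vector, and 23.7, 14.6, 25.1 and 21.7 in DU145KO+α2. The lines overlapped, and replicate 1 of DU145KO+vector was the highest sample of all. AKR1C1 was not called in any comparison or alternative. The log2 fold change of DU145KO+α2 was -0.47 ± 0.37 against DU145KO+vector (95% interval -1.29 to 0.35, adjusted p = 0.495) and -0.74 ± 0.37 against DU145KO (95% interval -1.55 to 0.08, adjusted p = 0.287), so differences of more than 2-fold were not excluded at this spread. Without replicate 1 of DU145KO+vector the first value was 0.03.

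The aldo-keto reductase genes have close relatives, and the authors kept uniquely aligned reads, so a read that fits 2 genes was left out of both. Words of 50 bases, the read length of the study, were taken from the canonical transcript of each gene. Of those of AKR1C1, from a transcript of 6543 bases, 22.7% also occur elsewhere, nearly all of them in AKR1C2. The means of AKR1C1 in DU145KO, 35.4 CPM and 25.5 RPKM, imply a counted model far shorter than that. The share within the counted model was not computed and may be larger. Of the words of AKR1B10, 17.2% occur elsewhere, and 11.3% in AKR1B15. The other 7 genes shared at most 1.18%. The counts of these 2 genes therefore rest on part of the transcript, and the levels of near-identical copies are uncertain. AKR1C2, which encodes a steroid-reducing neighbour of AKR1C1 on chromosome 10, fell by 1.03 ± 0.20 on the log2 scale in DU145KO+α2 against DU145KO, with an adjusted p of 0.00501. Its samples ran from 25.0 to 31.6 CPM in DU145KO, 15.4 to 31.6 in DU145KO+vector and 11.5 to 15.9 in DU145KO+α2. Against DU145KO+vector the log2 fold change was -0.54 ± 0.20, with an adjusted p of 0.105, and 0.0292 with the block. In AKR1C2, 47.3% of the words occur elsewhere and 45.7% in AKR1C1, so its values are uncertain too. AKR1C3, AKR1B1 and AKR1B15 were not called in any of the 3 comparisons without the block, and AKR1C3, with a mean of 171 CPM in DU145KO+α2 and 146 in DU145KO, passed between these with the block (adjusted p = 0.0110). AKR1B15 was near 1 to 5 CPM, and within DU145KO+vector its replicate 1 had 4.15 CPM and the other 3 samples 0.826 to 0.933, the sample that was also highest for AKR1B10, AKR1C1 and AKR1C2.

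Part of the spread within lines ran with the replicate number. Replicate 1 was the highest sample of all 3 lines for NQO1, TXNRD1 and AKR1B10, and of 2 lines for AKR1C1. Replicate 4 was the lowest sample of all 3 lines for SRXN1, but the highest of both transfected lines for HMOX1 and GCLM. Replicate 1 was the highest sample of only 1 line for HMOX1, GCLC and SRXN1, and of 0 lines for GCLM and NFE2L2. Deviations from the line mean reached 1.05 on the log2 scale for AKR1C1 and 0.81 for AKR1B10, both in replicate 1 of DU145KO+vector, whereas those of NQO1 and TXNRD1 stayed within 0.22. The labels do not say what the number stands for, and its cause was not tested.

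**Figure D3:**
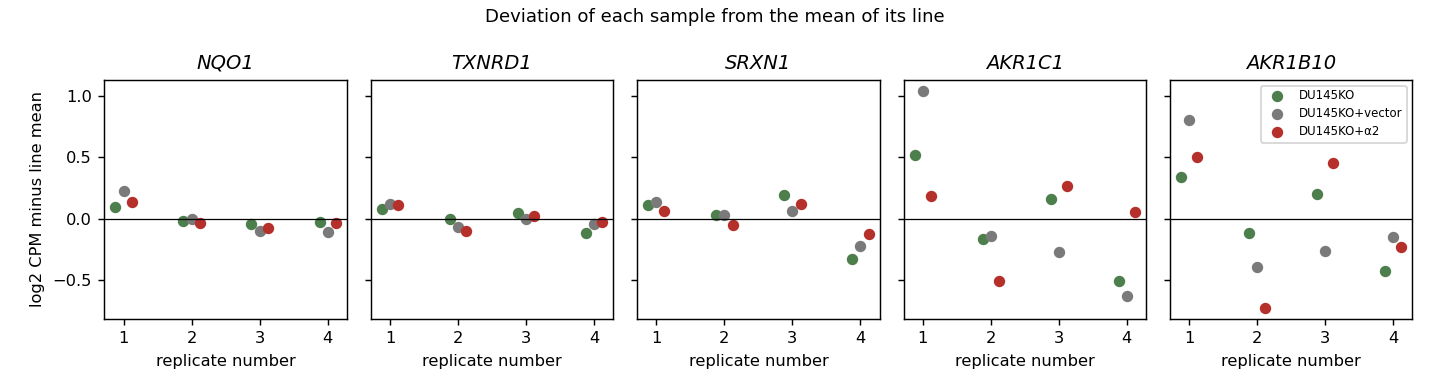
Deviation of each sample's log2 CPM from the mean of its line (vertical axis) by replicate number (horizontal axis) for 5 genes, with points coloured by line. Replicate 1 is above 0 in all 3 lines for each of NQO1, TXNRD1, SRXN1, AKR1C1 and AKR1B10, and replicate 4 is below 0 in all 3 lines for NQO1, TXNRD1, SRXN1 and AKR1B10.

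Genes around the NRF2 pathway were counted from 10 lists with 130 genes, of which 119 were tested. In DU145KO+α2 against DU145KO+vector, 7 rose and 14 fell, where 5.96% of all tested genes were called higher and 5.95% lower, with a median log2 fold change of -0.05 over the 119. Against DU145KO, 4 rose and 12 fell, where 3.09% and 5.08% of all genes did, with a median of -0.02. In DU145KO+vector against DU145KO, 1 rose and 3 fell, where 0.496% and 1.84% of all genes did, with a median of 0.01. The medians over all tested genes were -0.01, -0.00 and -0.00. With the block, 16 were called higher and 26 lower in the first comparison, where 12.9% and 13.7% of all genes were. In the second they were 17 and 28, where 9.93% and 12.4% of all genes were called, and in the third 11 and 14, where 5.59% and 7.85% were.

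Of 16 regulators of NRF2 tested, 3 rose and none fell against DU145KO+vector (5.96% and 5.95% of all genes), and 2 rose and none fell against DU145KO (3.09% and 5.08% of all genes), with list medians of 0.02 and -0.01. With the block, 1 and 3 fell (13.7% and 12.4% of all genes). MAFK, a small MAF protein that pairs with NRF2 and with the BACH repressors, rose by 0.87 ± 0.10 (SE) on the log2 scale against DU145KO+vector (adjusted p = 8.81e-05) and by 0.55 ± 0.10 against DU145KO (adjusted p = 0.00330). Its samples ran from 67.0 to 92.6 CPM in DU145KO+α2, 39.9 to 47.8 in DU145KO+vector and 47.5 to 61.6 in DU145KO, so DU145KO+α2 stood apart from both. In the annotation, 18.1% of the exonic bases of MAFK overlap TMEM184A on the opposite strand, and the strand setting of the counting is not given. BACH2, a repressor that binds the same elements with a small MAF, rose by 0.85 ± 0.18 against DU145KO+vector from a low level of 3.66 ± 0.424 CPM, and MAFF, another small MAF, by 0.53 ± 0.15. Neither passed against DU145KO. RBX1, the RING subunit of the KEAP1-CUL3 ligase, rose by 0.37 ± 0.10 against DU145KO, and its value of 0.05 against DU145KO+vector did not pass.

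GPX3 had the largest fold of the called genes of glutathione synthesis and use. Of the 20 tested, 1 rose and 3 fell against DU145KO+vector (5.96% and 5.95% of all genes), with a median log2 fold change of -0.20 beside -0.01 over all genes. None rose and 3 fell against DU145KO (3.09% and 5.08% of all genes), with a median of -0.10 beside -0.00. GPX3, the secreted glutathione peroxidase, had 38.7 to 67.3 CPM in DU145KO+α2, 105 to 194 in DU145KO+vector and 80.3 to 178 in DU145KO, and fell by 1.68 ± 0.29 and 1.52 ± 0.29 on the log2 scale (adjusted p = 0.00360 and 0.00846). The exporter gene ABCC4 fell by 0.57 ± 0.11 and 0.37 ± 0.11. GPX1, the main cytosolic peroxidase, fell by 0.34 ± 0.08 against DU145KO+vector, and GLRX, a glutaredoxin, fell by 0.44 ± 0.13 against DU145KO. Their other comparisons with α2, -0.10 and -0.22, did not pass. GSR, which reduces oxidized glutathione, rose by 0.30 ± 0.06 against DU145KO+vector, where the median of the 40 tested genes within 5 Mb of it was 0.43. For the 9 genes of the set such neighbour medians lay between -0.07 and 0.10 in that comparison. Of 15 glutathione transferases, none rose and 1 fell against DU145KO+vector (5.96% and 5.95% of all genes), and none rose and 3 fell against DU145KO (3.09% and 5.08% of all genes). MGST3, a microsomal transferase, fell by 0.38 ± 0.08 and 0.29 ± 0.08. Against DU145KO, GSTM2 fell by 1.09 ± 0.30 and GSTM3 fell by 0.49 ± 0.12. In DU145KO+vector against DU145KO, GSTM2 fell by 1.31 ± 0.30 as well.

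In the thioredoxin and peroxiredoxin list, none of 16 genes rose and 2 fell against DU145KO+vector (5.96% and 5.95% of all genes). None was called against DU145KO by edgeR, where 3.09% of all genes were called higher and 5.08% lower. Against DU145KO, 6 were called with the block, 4 higher and 2 lower (9.93% and 12.4% of all genes). In that comparison 3 passed at an unadjusted p under 0.05, 1 with DESeq2 and 0 with voom. TXN, thioredoxin itself and the substrate of TXNRD1, had 216 to 287 CPM in DU145KO+α2, 324 to 420 in DU145KO+vector and 294 to 360 in DU145KO, and fell by 0.60 ± 0.11 on the log2 scale against DU145KO+vector (adjusted p = 0.00152). Its neighbours within 5 Mb had a median of -0.29 in that comparison. PRDX1, a peroxiredoxin, fell by 0.33 ± 0.09 against DU145KO+vector. Of 10 genes that make NADPH, 1 rose and 2 fell against DU145KO+vector (5.96% and 5.95% of all genes), and 1 rose and 1 fell against DU145KO (3.09% and 5.08% of all genes). TALDO1, the transaldolase of the pentose phosphate pathway, fell by 0.36 ± 0.07 and 0.33 ± 0.07 in the 2 comparisons, and NNT, the mitochondrial transhydrogenase, rose by 0.26 ± 0.07 and 0.33 ± 0.07. ME1, cytosolic malic enzyme, fell by 0.27 ± 0.07 against DU145KO+vector.

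Among the remaining lists, ALDH3A1 had the largest fold. Of 11 other reductases and conjugating enzymes, 2 rose and 2 fell against DU145KO+vector (5.96% and 5.95% of all genes), and 1 rose and 2 fell against DU145KO (3.09% and 5.08% of all genes). ALDH3A1, an aldehyde dehydrogenase, rose by 2.34 ± 0.32 and 1.15 ± 0.28 on the log2 scale, at a low level of 2.07 to 3.97 CPM in DU145KO+α2, 0.460 to 0.775 in DU145KO+vector and 0.799 to 2.18 in DU145KO. ALDH3A2, the fatty aldehyde dehydrogenase, fell by 0.46 ± 0.10 and 0.48 ± 0.10, and CBR3, a carbonyl reductase, fell by 0.80 ± 0.17 and 0.72 ± 0.17. UGDH, which makes UDP-glucuronate, rose by 0.36 ± 0.08 against DU145KO+vector. Of 10 further listed NRF2 targets, none rose and 4 fell against DU145KO+vector (TSKU, OSGIN1, TRIM16L and TRIM16), and none rose and 2 fell against DU145KO (TSKU and CYP4F11). Of all genes, 5.96% rose and 5.95% fell against DU145KO+vector, and 3.09% rose and 5.08% fell against DU145KO. TSKU fell by 0.50 ± 0.12 and 0.73 ± 0.12, and OSGIN1, an oxidative stress response gene, fell by 0.49 ± 0.10 against DU145KO+vector. TRIM16 and TRIM16L share 32.1% and 55.7% of their 50-base words, so their values are uncertain. In DU145KO+vector against DU145KO, TRIM16L rose by 0.38 ± 0.09, and CYP4F11 and PANX2 fell by 0.58 ± 0.13 and 0.42 ± 0.10. Of 8 other aldo-keto reductases, AKR1C2 fell against DU145KO and none was called against DU145KO+vector, beside the same shares of all genes. None of 8 heme and iron genes and none of 5 superoxide and peroxide scavengers was called by edgeR in any comparison. The shares of all genes were again these, and 0.496% higher and 1.84% lower in DU145KO+vector against DU145KO. With the block, 3 heme and iron genes and 2 scavengers were called against DU145KO+vector, where 12.9% of all genes were called higher and 13.7% lower. Against DU145KO they were 2 and 2, where 9.93% and 12.4% of all genes were called. At an unadjusted p under 0.05, 2 and 2 passed against DU145KO+vector and 1 and 2 against DU145KO, and DESeq2 called 1 heme and iron gene against DU145KO+vector and voom called 0. Against DU145KO, 6 named genes passed with the block alone, GSR (0.20), UGDH (0.17), TXN (-0.34), ME1 (-0.18), OSGIN1 (-0.32) and PANX2 (-0.34), the values being log2 fold changes without it, with blocked adjusted p of 0.000281 to 0.0376. In DU145KO+vector against DU145KO, 11 of the 28 named list genes passed with the block alone, with adjusted p in that fit of 0.00366 to 0.0369. Of these, RBX1 (0.32), TRIM16 (0.26), TXN (0.26), GPX1 (0.24) and PRDX1 (0.23) were higher in DU145KO+vector, the values being log2 fold changes without the block. ALDH3A1 (-1.18), AKR1C2 (-0.50), MAFF (-0.37), GSTM3 (-0.32), TSKU (-0.23) and UGDH (-0.19) were lower.

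**Figure D4:**
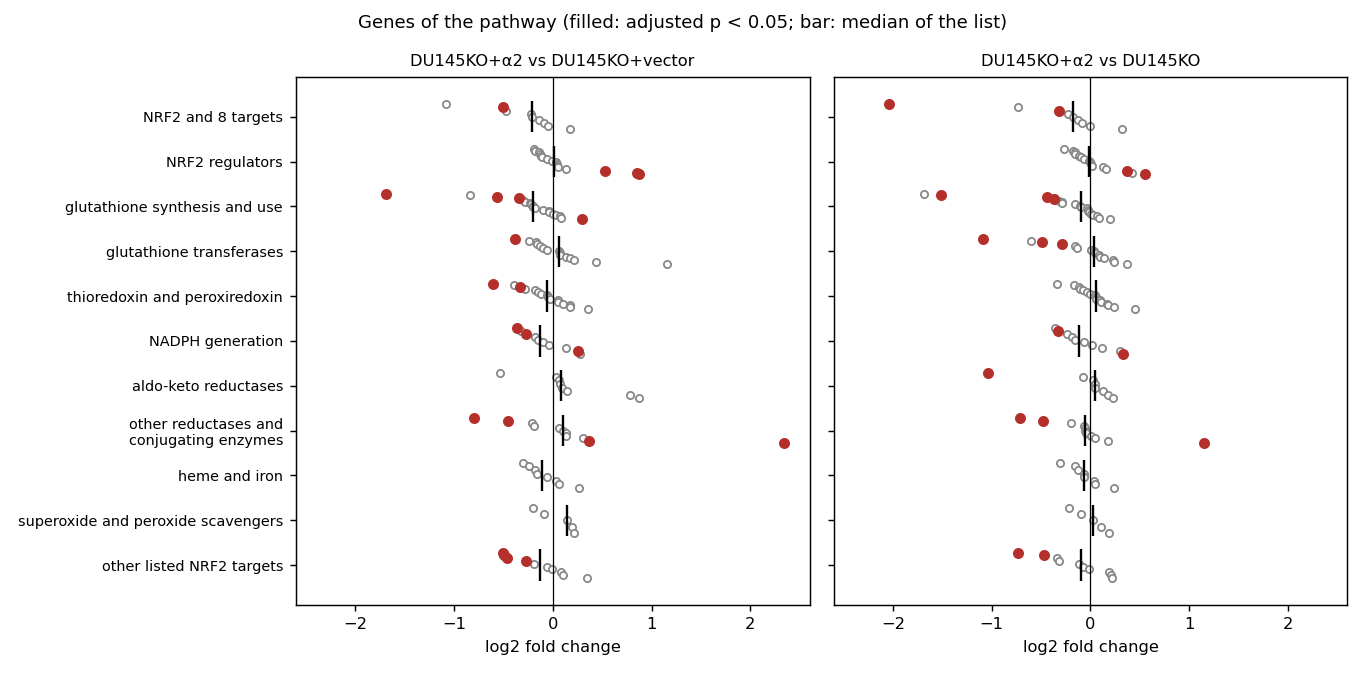
Log2 fold changes of the tested genes of NRF2 and 8 targets (top) and of the 10 lists, in DU145KO+α2 against DU145KO+vector (left) and against DU145KO (right), with one point per gene, filled where the adjusted p was under 0.05 and a bar at the median. The called genes of the regulator list lie above 0 in both panels, and those of the glutathione transferase list below 0.

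As a description of pattern, the log2 CPM of each of the 9 genes was compared over the 12 samples with that of 12783 other genes with a mean log2 CPM of at least 1. The closest gene to AKR1B10 was AKR1C2 (Pearson 0.960), followed by ERBB3 (0.945). The closest to GCLC were PLLP (0.972) and FAM206A (0.951), to NQO1 FAS (0.955) and POC1B (0.947), and to TXNRD1 PIGK (0.948) and B2M (0.944). SRXN1 was closest to PAXIP1-AS1 (0.941), NFE2L2 to ORMDL1 and HMOX1 to AATBC (0.91 each), GCLM to NOL7 (0.912) and AKR1C1 to NUP50-AS1 (0.900). The points share lines, replicate numbers and libraries, and the highest of many correlations is high by selection. None of the 9 had another of the 9 as its closest gene.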

How the data were processed

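Spheroid RNA of the 3 lines was sequenced as single-end 50-base reads from stranded mRNA libraries, with 4 samples per line that are described as independent biological replicates. The authors aligned the reads to hg38 with TopHat2 2.1.0 and deposited counts of uniquely aligned reads per gene, made with Subread 1.5.0, after base calling with bcl2fastq 1.8.4 (submitters' processing notes). The strand setting of the counting is not given in the sources used here. The authors also deposited RPKM values, which are counts scaled per sample and per gene length, used here for levels.

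Counts were analysed with edgeR 4.0.16 in R 4.3.3, with a filter at a minimum count of 10, TMM factors, robust quasi-likelihood tests on all 12 samples and Benjamini-Hochberg adjustment over 14732 genes. An SE is the absolute log2 fold change divided by the square root of F. DESeq2 1.42.0, limma 3.58.1 with voom, RPKM, scalings, filters, the block and left-out samples served as alternatives. Samples held 13948734 to 19988111 counts, and 3 counts equal 0.150 to 0.215 CPM. The tests were checked on simulated data.

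Samples were grouped by title and label, and replicate numbers come from the titles. For the 12 pairs of samples with the same number in different lines, correlations of deviations from the line means across genes were 0.13 to 0.55, all above 0.1. For the 36 pairs with different numbers they were -0.29 to 0.15, with 2 above 0.1, so the 2 ranges overlapped slightly. On this ground the numbers were taken to pair the samples. The genes and lists were chosen with earlier results of these data known. Named were the 9 genes, KEAP1, ITGA2, 4 paralogs, called list genes with a fold change above 2 or otherwise up to 4 per list by size, and the 2 most alike genes. BACH1 was named outside this rule, because it is known to repress HMOX1. Of the 130 listed genes, 129 were in the table. Gene positions and promoters come from RefSeq (GRCh38.p14), and transcripts for 50-base words from GENCODE. Some marker genes are not reported here.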

Additional observations from a re-analysis of the deposited data

Results flagged for a closer look

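In 3 of 30 groups of 4 samples tested for a value set apart (9 genes and the total count in each line), 1 sample lay far from the other 3. Chance gives about 1 in 20, or 1.5 of the 30. NQO1 in replicate 1 of DU145KO had 3394 CPM, against 3080 to 3132 in the other samples, a gap of 0.836 of the range. GCLM in replicate 4 of DU145KO+α2 had 76.8 CPM, against 57.8 to 59.9, a gap of 0.888. AKR1B10 in replicate 1 of DU145KO+vector had 22.8 CPM, against 9.83 to 11.7, a gap of 0.856.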

How the results depend on the processing

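Counts of called genes are given in the order of DU145KO+α2 against DU145KO+vector, DU145KO+α2 against DU145KO, and DU145KO+vector against DU145KO. For the 9 genes they were 1, 2 and 0, and for the lists 21, 16 and 4. With the replicate block they were 4, 5 and 2, and 42, 45 and 25, and the block changed no other call of the 9 genes than those given in the text. The second count of the 9 genes was 1 with DESeq2 size factors, with no filter on low counts, with the 2 groups alone and with limma on RPKM at either pseudocount. The first was 2 with library size alone and 3 with DESeq2. The third list count was 7 with DESeq2, 2 with voom, 1 with the 2 groups alone and 2 with limma on log2(RPKM + 0.1). With a fold change above 2 added to the adjusted p, the 9 genes gave 0 and 1 in the first pair of comparisons, and the lists 2, 4 and 1. With a fold change above 2 alone, the study's rule, the 9 genes gave 1, 1 and 0, and the lists 3, 5 and 2. Leaving out 1 library, or 1 replicate number with and without the block, gave 1 to 5, 1 to 5 and 0 to 2 of the 9 genes, and 9 to 39, 4 to 38 and 0 to 22 of the lists. Leaving out numbers was chosen after seeing the data.

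Signs turned only for values that were not called. GCLM in DU145KO+α2 against DU145KO was 0.00428 with DESeq2 size factors, 0.00405 with DESeq2, 0.00715 with no filter, 0.00530 with the 2 groups alone, and 0.00186 and 0.00223 with limma on RPKM. Over left-out libraries it ran from -0.109 to 0.0508. The log2 fold change of DU145KO+vector against DU145KO ran from -0.102 to 0.0156 for NQO1, -0.138 to 0.0303 for SRXN1 and -0.00250 to 0.0696 for TXNRD1, and that of AKR1C1 in DU145KO+α2 against DU145KO+vector from -0.675 to 0.0339, positive without replicate 1 of DU145KO+vector. The cause was not tested. Scaling moved the median of all genes by less than 0.01. Low counts of AKR1B10 in DU145KO+α2 (74 to 145) limit its precision.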
